A study of Mus musculus with 10 samples.

Results

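U1 small nuclear RNA was targeted with an antisense morpholino oligonucleotide in 4T1 mouse mammary tumour cells. In replicate 1 of the treated group, 205 polyadenylation peaks overlapped a replicate 2 peak and no peak of the 8 other libraries. A peak is a stretch of 1 strand where reads from the 3' ends of polyadenylated RNA pile up. The peaks were chosen by their read numbers and overlaps. A peak was taken from the list of 4T1-U1-ASO replicate 1 if it had at least 5 reads, overlapped by 1 bp or more on the same strand a replicate 2 peak with at least 5 reads, and overlapped no peak of any other group. The last condition was asked of the replicate 1 peak only, so its replicate 2 partner could still overlap another group's peak. How many partners did so was not counted, and absence from the other groups holds for the replicate 1 peaks only. Only chromosomes 1 and 10 to 17 were used, the ones present in all 10 lists, without chromosome 18. The 205 peaks made up 2.38% of the 8607 replicate 1 peaks with at least 5 reads in both libraries of the group, the share that the rule itself sets. They stand against 43830 peaks of that list and 343334 peaks of all 10 lists on the same chromosomes.

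U1 is the RNA core of the small nuclear ribonucleoprotein that pairs with 5' splice sites at the start of splicing. The particle is also known to keep the cleavage and polyadenylation machinery from acting at cryptic signals inside introns, a function called telescripting. When U1 is blocked, transcripts can end early, inside an intron, and lose the downstream exons.

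The study used 3'-end sequencing of polyadenylated RNA, with 2 libraries for each of 5 groups. The lines 67NR and 168FARN are labelled non-invasive and 4T07 and 4T1 invasive, and the series calls the same pairs non-metastatic and metastatic. The group 4T1-U1-ASO was the 4T1 line with the morpholino, added to the medium with the delivery reagent Endo Porter at 6 µl/mL. The series text speaks of mock-transfected 4T1 cells as the control, but no treatment is on the labels of these libraries, so effects of the morpholino and of the delivery reagent cannot be told apart from the labels. Separate cultures for both libraries of a group are not stated on any label, so agreement between them may be technical. No gene is assigned to a peak in the lists, so marker genes of mammary epithelium could not be checked here. U1 RNA carries no poly(A) tail, and the block itself was not measured by these libraries.

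The 2 lists of 4T1-U1-ASO held 2596503 and 2643219 reads, and the other 8 held from 1427728 to 3347776. The lowest was 67NR replicate 2, which covers only the chromosomes used here and chromosome 18. Counted on the 9 chromosomes alone, that list held 1408291 reads, below only 67NR replicate 1 with 1477288. The 4T1-U1-ASO lists held 1163336 and 1178612 there. On the 9 chromosomes the 4T1-U1-ASO replicate 1 list held 43830 peaks and that of 4T1 replicate 1 held 23879. Between 47.0% and 54.2% of the peaks of a list had a single read. Each list runs through its chromosomes in 2 successive blocks of peaks. What divides the blocks is not stated by the labels or the lists. The first block held 79.0% to 86.9% of a library's reads, and was lowest in both 4T1-U1-ASO libraries.

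The same rule was applied to each of the other groups in turn (the plot of group-only peaks). It gave 163 peaks listed only in 67NR (1.98% of 8246 peaks with at least 5 reads in both libraries), 75 only in 4T07 (1.05% of 7123), 56 only in 168FARN (0.78% of 7176) and 14 only in 4T1 (0.217% of 6457). The exact binomial 95% interval of the share was 2.07% to 2.73% for 4T1-U1-ASO and 1.69% to 2.30% for 67NR, so these 2 shares overlapped in counting error. The intervals of the other groups lay below both, and cover counting error only. The order of the groups was also the order of the number of peaks in their replicate 1 lists, which was 43830 for 4T1-U1-ASO, 37733 for 67NR, 28565 for 4T07, 27917 for 168FARN and 23879 for 4T1. In the replicate 2 lists the first 2 changed places, with 46686 peaks for 67NR and 42939 for 4T1-U1-ASO, while the shares started from those lists were 1.99% and 2.39%. 4T1 and 4T1-U1-ASO are the same line, so the lists of each excluded peaks of the other. The remaining groups met only lists of other lines, so the shares are not fully alike. The parts of list length and of the shared line in these shares were not tested. Where only the 4T1 lists were used to exclude peaks, 893 of the 8607 peaks of 4T1-U1-ASO (10.4%) met no 4T1 peak. In the other direction, 130 of the 6457 peaks of 4T1 (2.01%) met no 4T1-U1-ASO peak.

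**Figure D1:**
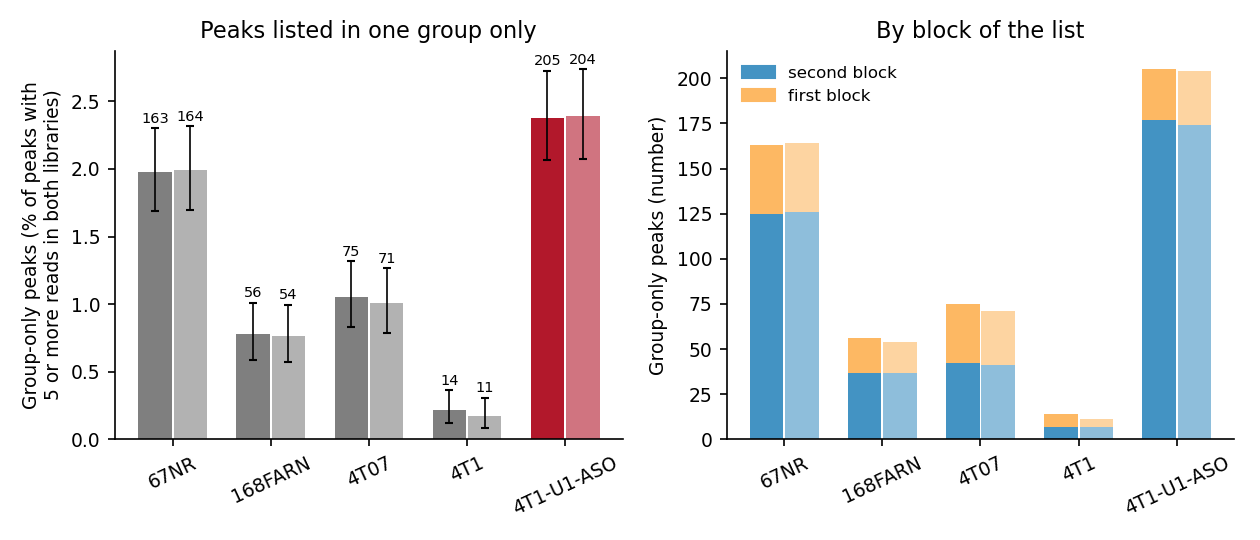
Left, peaks of 1 list that overlap the group's other list and no list of another group. Bars give them as a percentage of the group's peaks with 5 or more reads in both libraries. Lines are exact binomial 95% intervals, with the number of peaks above each bar. The darker bar of a pair starts from the replicate 1 list and the paler from the replicate 2 list. Right, the number of the same peaks by block of the list: 4T1-U1-ASO had 177 second-block and 28 first-block peaks from the replicate 1 list, and 67NR had 125 and 38.

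Agreement between the replicates could be read in the library that the choice left out. Of 788 peaks of replicate 1 with at least 5 reads and no overlap with another group's list, 205 had a replicate 2 peak with at least 5 reads, a share of 26.0% (exact 95% interval 23.0% to 29.2%). Started from replicate 2, the share was 26.8%, 204 of 760 peaks. Any replicate 2 peak was met by 36.7% of the 788. Peaks of the same list that did meet another group's peak were found again far more often, at 80.2% of 10477. Both sets were not matched for reads, the 788 having a median of 8, and the part of read depth in this gap was not tested. The other groups' exclusive peaks were recovered at shares from 8.73% in 4T1 to 40.8% in 4T07, so about 1 in 4 was within the range of the series. Most peaks exclusive to 1 4T1-U1-ASO library were thus not seen at 5 reads in the other, and the 205 are the part that was.

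The 205 peaks had few reads. Their counts ran from 5 to 394 in replicate 1, with a median of 11 and quartiles of 7 and 25, and from 5 to 424 in replicate 2, with a median of 12. The 8402 peaks of the list that met another group's peak had a median of 37 reads. Together the 205 held 5418 reads in replicate 1 and 5628 in replicate 2, or 0.466% and 0.478% of the reads on these chromosomes. The 10 peaks with the most reads held 33.2% and 34.2% of those reads. At least 10 reads in both libraries were found at 99 peaks, at least 50 at 23, and at least 100 at 10. At the lower limit, 10 peaks had exactly 5 reads in both libraries, and 58 further peaks fell just outside it with 4 reads in 1 or both libraries. Of the peaks that another list did meet, 71 were met by a single read in all 8 other lists together, and 144 by 1 or 2 reads. The limits of the set on both sides therefore ran through peaks of very few reads.

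Read numbers in both libraries were close (the plot of reads in both libraries). Scaled to the reads of each list, 188 of the 205 peaks (91.7%) differed by 2-fold or less. Of the 55 peaks with at least 50 reads over both libraries, 54 did so. Over the 205 peaks Pearson's r of log10 reads was 0.91 and Spearman's rho 0.82, as a description of peaks that share the 2 libraries and the minimum of 5 reads. The exception among the well-covered peaks was chr15:8308635-8308838 on the minus strand, with 32 reads in replicate 1 and 140 in replicate 2. Replicate 2 lists 1 peak of 635 bp there, which also takes in chr15:8309154-8309272 with its 117 replicate 1 reads, so the 205 peaks met 204 different replicate 2 peaks.

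**Figure D2:**
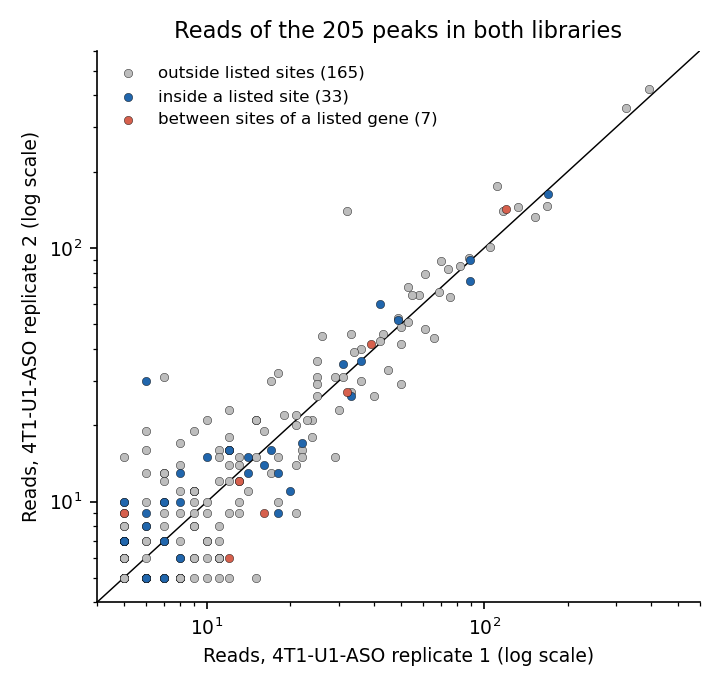
Reads of each of the 205 peaks in 4T1-U1-ASO replicate 1 (x axis) and replicate 2 (y axis), both log scales, coloured by position relative to the authors' listed sites, with the line of equal reads. Most points lie near the line from 5 reads upward; the point farthest above it among the deeper peaks has 32 and 140 reads.

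The 10 peaks with the most reads lay outside the authors' listed sites and the spans between them, with 2 exceptions. The first was chr1:6238769-6240548 on the plus strand, with 394 reads in replicate 1 and 424 in replicate 2. It was also the widest, at 1780 bp, and the nearest 4T1 peak lay 102 bp away. The next was chr11:54330135-54330650 on the plus strand, with 326 and 356 reads, 209 bp from the nearest peak of another group. Both libraries gave near-equal counts at these peaks. That none of the 8 other lists held a peak over either follows from the rule.

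The third was chr14:37946364-37946483 on the minus strand, with 170 and 164 reads, inside a listed site of Ghitm, which encodes a mitochondrial inner membrane protein. The next were chr1:60542900-60543228 (minus, 169 and 146 reads), chr16:37883534-37883792 (plus, 111 and 176) and chr1:192996277-192996365 (minus, 153 and 133). These lay 265, 479 and 730 bp from the nearest peak of another group. On chromosome 15, chr15:8288684-8289091 (minus) had 132 and 145 reads and stood farther off, 8737 bp from any other group's peak and 15544 bp from a 4T1 peak. Rock2, which encodes a kinase that acts on the actin and myosin cytoskeleton, held the eighth between its listed sites, at chr12:16966204-16966315 with 120 and 142 reads. The last were chr15:8309154-8309272, already described, and chr14:57297386-57297563 on the plus strand with 105 and 101 reads. Outside Ghitm and Rock2 these peaks are given by position only, since no annotation of mm9 was used here.

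Most of the 205 belonged to the second block of the list. There were 177 of them in it (86.3%) and 28 in the first, while 33.1% of the 8402 peaks met by another group were in the second block. The share was 76.7% among peaks listed only in 67NR, 66.1% in 168FARN, 56.0% in 4T07 and 50.0% in 4T1. Second-block peaks met by another group had a median of 16 reads, and the 177 a median of 11. Of the 10 peaks with the most reads, those on chromosomes 11 and 16 and chr1:60542900-60543228 were first-block peaks.

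The width of a peak ran from 51 to 1780 bp in replicate 1, with a median of 226 bp and quartiles of 131 and 329 bp. In replicate 2 the median was 239 bp. Peaks met by another group were wider, with a median of 279 bp, but within the second block they were narrower, with a median of 199 bp against 219 bp for the 177. The direction of the difference in width thus was not the same over all peaks and within the second block. Widths within the first block were not compared.

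The peaks were on both strands, 111 on the plus and 94 on the minus, and on all 9 chromosomes. As a share of the peaks with at least 5 reads in both libraries they ran from 1.56% on chromosome 11 (26 peaks) to 3.52% on chromosome 14 (23 peaks). Chromosome 1 held 43, the highest number, at 3.14%. A peak on the opposite strand in any list overlapped 11 of the 205 (5.37%), against 13.5% of the peaks met by another group.

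Although no other list overlapped them, peaks of other groups were close (the plot of distances). The gap to the nearest peak of another group on the same strand had a median of 484 bp and ran from 2 to 31088 bp. It was at most 200 bp for 37 peaks, at most 1000 bp for 140 and at most 5000 bp for 195. The gap to the nearest 4T1 peak had a median of 1498 bp, and 18 peaks had one within 200 bp. The peak farthest from any other group's was chr1:62708137-62708340 on the plus strand, with 6 and 5 reads. Nearest were peaks such as that inside a listed site of Pip4k2c, a phosphoinositide kinase, 7 bp from another group's peak.

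**Figure D3:**
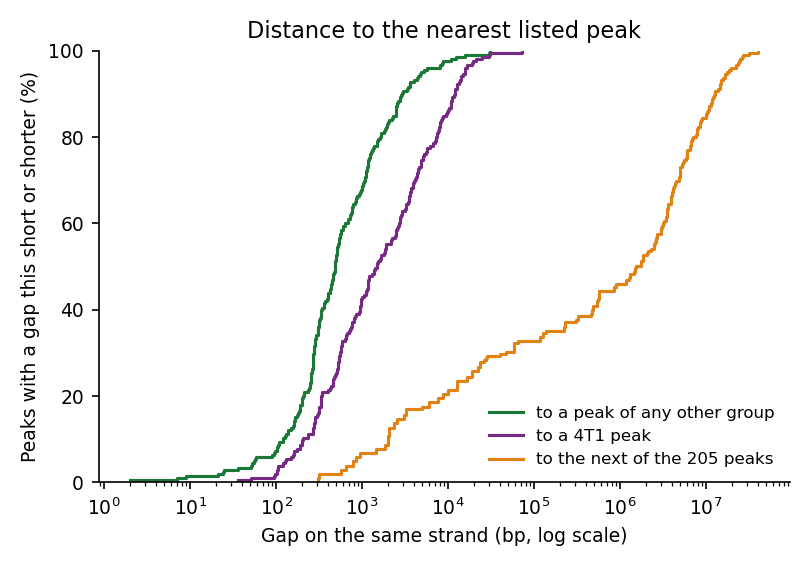
Cumulative percentage of the 205 peaks (y axis) whose gap on the same strand is at or below the distance on the x axis (bp, log scale), to a peak of any other group, to a 4T1 peak and to the next of the 205. The medians are 484 bp, 1498 bp and 1528039 bp.

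The 205 were for the most part far from each other. The gap to the next of them on the same strand had a median of 1528039 bp. Within 5 kb of another were 36 peaks (17.6%), in 17 clusters of 2 or 3. That share was 8.59% among peaks listed only in 67NR, 21.4% in 168FARN, 25.3% in 4T07 and 0 of 14 in 4T1. The share depended on the distance, at 6.83% for 1000 bp and 30.2% for 50000 bp.

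The largest cluster by reads was on the plus strand at chr1:6235274-6241243, 5970 bp with 3 peaks and 409 and 435 reads, nearly all in the strongest peak named above. A cluster of 3 at chr16:24983909-24991448, also plus, had 57 and 81 reads, of which 33 and 46 were in 1 peak. On the minus strand of chromosome 15, 2 clusters of 2 peaks lay near each other, chr15:8285037-8289091 with 145 and 157 reads and chr15:8308635-8309272 with 149 and 140. The fifth cluster was in Taf15, at chr11:83302427-83305153 with 88 and 94 reads.

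The authors' deposited tables of 4T1-U1-ASO against 4T1 list intronic polyadenylation sites whose use relative to the last exon of the same gene differed, with an adjusted p of at most 0.1. On the 9 chromosomes the authors' deposited tables hold 613 sites listed as higher under U1-ASO and 93 listed as lower, in 499 genes. Of the 205 peaks, 33 (16.1%) lay inside 33 sites listed as higher in the authors' deposited table and 0 inside a site listed as lower. Over all 8607 peaks with at least 5 reads in both libraries, 3.4% lay inside a site listed as higher and 0.407% inside a site listed as lower. The table compares the same libraries that chose the peaks, so the direction is a description and no support. Within the second block, 10.3% of the peaks met by another group lay inside a listed site. A further 7 peaks lay between the sites of 1 listed gene. These 7 were 3.41% of the 205, against 0.809% of the peaks met by another group. The other 165 lay outside the listed sites and the spans between them, 13 of them within 10000 bp of a listed site, 7 upstream and 6 downstream. Some of the 165 may still lie in a listed gene, since gene bounds were not used here. Seen from the 613 sites listed as higher, 33 held one of the 205, 256 held a peak met by another group, and 324 held no peak with at least 5 reads in both libraries.

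The tables also show that a peak missing from a list is not a site without reads (the plot of site signals). Of the 33 sites, the authors' deposited table gives a normalized read signal of 0 in both 4T1 libraries at 7, a signal in 1 of them at 10, and a signal in both at 16. Of the 19 sites with signal in 4T1 replicate 1, only 1 held a peak of that list. Of the 23 with signal in 4T1 replicate 2, only 2 did. None of these peaks overlapped the U1-ASO replicate 1 peak itself. At the other 673 listed sites, 52.8% and 52.3% of the sites with a signal in 4T1 had no listed peak in that same library, and 26.5% and 29.8% in 4T1-U1-ASO. The lists are filtered, and what the filter removed is not stated by the labels or the lists. The 205 are therefore called peaks listed only in 4T1-U1-ASO, not sites used only there. In bulk libraries such as these, fewer cells using a site and fewer such transcripts per cell cannot be told apart.

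**Figure D4:**
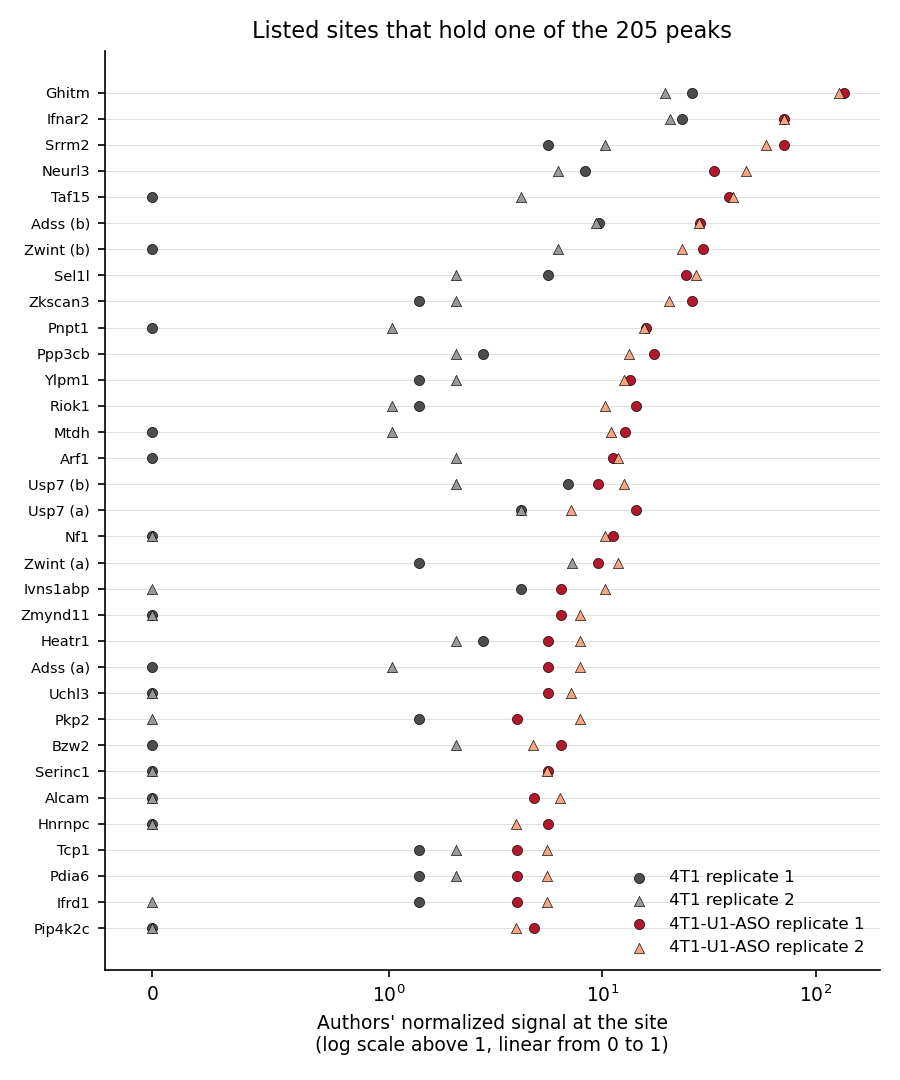
The authors' normalized read signal at each of the 33 listed sites that hold one of the 205 peaks, in both 4T1 and both 4T1-U1-ASO libraries; the x axis is linear from 0 to 1 and logarithmic above, and (a) and (b) mark different sites of the same gene. The 4T1 signals run from 0 to 26.3 (Ghitm), and 7 sites have 0 in both.

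In the authors' deposited table the log2 fold change at the 33 sites ran from 1.19 to 3.57, with a median of 2.12, and the adjusted p was at most 0.01 at 10 of them. The other 580 sites listed as higher in the authors' deposited table had a median log2 fold change of 1.91. These fold changes are the authors' own values and are not ratios of the usage computed here. Usage, the share of the site in the summed signal of site and last exon, had a median of 4.78% in 4T1-U1-ASO and 0.594% in 4T1 over the 33 sites, from the authors' signals. Most of these sites were thus minor ends of their gene also under U1-ASO. The median usage of the other sites listed as higher was 5.10%.

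Ghitm had the strongest of the 33 sites. Its signal in the authors' deposited table was 136 and 129 in the 4T1-U1-ASO libraries and 26.3 and 19.7 in 4T1. The groups did not overlap, and 4T1 was well above 0 in both libraries. The 33 sites are listed for a difference between these groups. Signals that stand apart, here and at the sites below, are therefore a description and no support. Usage was 7.99% ± 0.427 (SD, n = 2) with the morpholino and 3.48% ± 0.863 (SD, n = 2) without it, and the authors' deposited table gives a log2 fold change of 1.22. Ifnar2, which encodes a chain of the type I interferon receptor, had the highest usage. Its site at chr16:91391944-91392125 had signals of 71.0 and 71.0 against 23.6 and 20.7 in the authors' deposited table, with 89 and 90 reads in the peak. Usage was 45.8% ± 2.52 (SD, n = 2) against 25.2% ± 0.225 (SD, n = 2), so the site came near the last exon with the morpholino and stayed well below it in 4T1.

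Srrm2, which encodes a scaffold protein of nuclear speckles and the spliceosome, showed a larger gap. The peak chr17:23951340-23951629 (plus, 89 and 74 reads) lay in a site with signals of 71.0 and 58.3 in 4T1-U1-ASO and 5.54 and 10.3 in 4T1 in the authors' deposited table. Usage was 24.4% ± 4.45 (SD, n = 2) and 2.19% ± 0.677 (SD, n = 2), with a log2 fold change of 3.31 in the authors' deposited table. A second Srrm2 site upstream, which holds none of the 205, was used at 47.6% ± 2.32 (SD, n = 2) and 27.3% ± 4.93 (SD, n = 2), from the signals in the authors' deposited table. Both sites were higher under U1-ASO in each library, and the one with the peak started from the lower level.

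Neurl3, a ubiquitin ligase gene, had signals of 33.5 and 47.3 in 4T1-U1-ASO and 8.32 and 6.21 in 4T1 in the authors' deposited table, and its peak chr1:36325787-36326001 (minus) had 42 and 60 reads. Sel1l, which encodes a subunit of the degradation machinery of the endoplasmic reticulum, had 24.7 and 27.6 against 5.54 and 2.07 in the authors' deposited table. Zkscan3, a zinc-finger transcription factor gene, had 26.3 and 20.5 against 1.39 and 2.07 in the authors' deposited table. Signals of both groups were apart at these 3 sites, which the listing itself favours, and each had some signal in both 4T1 libraries. Ppp3cb, which encodes a catalytic subunit of the phosphatase calcineurin, had 17.6 and 13.4 against 2.77 and 2.07 in the authors' deposited table. Its usage was 8.87% ± 0.642 (SD, n = 2) and 1.45% ± 0.698 (SD, n = 2).

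Sites at 0 in both 4T1 libraries were weak in 4T1-U1-ASO too. In the authors' deposited table they were those of Nf1, which encodes the Ras regulator neurofibromin, Zmynd11, Uchl3, Serinc1, Alcam, which encodes a cell adhesion molecule, Hnrnpc and Pip4k2c. The strongest was that of Nf1, with signals of 11.2 and 10.3 in the authors' deposited table and 14 and 13 reads in the peak. Because its last exon was low as well, usage there reached 18.1% ± 2.31 (SD, n = 2). The largest fold change of the 33, 3.57 on the log2 scale in the authors' deposited table, was at a site of Arf1, a small GTPase gene of the Golgi. Its signals were 11.2 and 11.8 in 4T1-U1-ASO and 0 and 2.07 in 4T1 in the authors' deposited table, for a usage of 3.06% ± 0.196 (SD, n = 2) with the morpholino.

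The last exons of these genes did not move one way. In the authors' deposited table the last-exon signal was lower in both 4T1-U1-ASO libraries than in both 4T1 libraries at 18 of the 33 sites, higher at 10, and overlapped at 5. Adss, Usp7 and Zwint, each with 2 of the sites, count once per site, and all fall among the lower. Over all 613 sites listed as higher, the last exon was lower in this way at 72.9%, again counted by site. At the 33 sites the median log2 ratio of last-exon signals was -0.47, between -2.28 for Tcp1, a chaperonin subunit gene, and 1.32 for Taf15. Ghitm was among the genes with the higher last exon under U1-ASO (1499 and 1552 against 618 and 666 in the authors' deposited table), so site and last exon were both higher there. Hnrnpc went the other way, with last-exon signals of 471 and 532 against 1465 and 1226 in the authors' deposited table, and a site at 5.58 and 3.94 against 0 and 0.

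Among the 35 listed genes that held at least 1 of the 205, Taf15, Adss, Tpr, Zwint and Usp7 held 2 each (the plot of peaks along listed genes). Taf15 encodes an RNA-binding protein that can associate with U1. One of its peaks, chr11:83304895-83305153 (plus, 49 and 52 reads), filled a site with signals of 39.1 and 41.0 in 4T1-U1-ASO and 0 and 4.14 in 4T1 in the authors' deposited table. The other, chr11:83302427-83302918 (39 and 42 reads), lay 1976 bp upstream of it in no listed site. In the authors' deposited table the gene also has a site listed as lower, further upstream, and 2 listed as higher downstream, while its last exon was higher under U1-ASO (692 and 729 against 225 and 344). Both Taf15 peaks thus lay between a site listed as lower and sites listed as higher.

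Tpr encodes a protein of the nuclear pore basket. Its peaks chr1:152272762-152272907 (plus, 32 and 27 reads) and chr1:152275244-152275365 (12 and 6 reads) were in no listed site, but between the second and the third of its 4 sites. All 4 are listed as higher in the authors' deposited table, with usage from 20.6% to 43.7% in 4T1-U1-ASO and from 6.06% to 16.9% in 4T1. The nearest 4T1 peaks were 9392 and 10867 bp away from these peaks, but the nearest peaks of any other group only 751 and 1095 bp. A further peak, chr1:152253587-152253687 (9 and 11 reads), lay 2181 bp upstream of the first Tpr site. Whether it is inside that gene was not determined. Zwint, a kinetochore gene, has 7 sites listed as higher in the authors' deposited table, and 2 held a peak of the 205. One of them, chr10:72134531-72134607 (plus), had 6 and 30 reads and lay 36 bp from a 4T1 peak. It was among the few to differ more than 2-fold between replicates, but its widths were 77 bp and 810 bp. The listed site is also 810 bp wide, and that 4T1 peak reaches into it. The replicate 2 peak may therefore overlap the 4T1 peak, and only the 77 bp of replicate 1 are known to be free of one. Over the whole site the 4T1-U1-ASO signals were 29.52 and 23.65 in the authors' deposited table, so replicate 1 was not lower there. The other, chr10:72128003-72128471, had 10 and 15 reads.

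Usp7 encodes a deubiquitinating enzyme, and 2 of its 3 listed sites held a peak, with 18 and 9 reads and with 12 and 16 reads. Signals at the first, chr16:8695910-8696324, were 14.4 and 7.10 against 4.16 and 4.14 in the authors' deposited table. At the second they were 9.57 and 12.6 against 6.93 and 2.07 in the authors' deposited table. The groups did not overlap at either site, but the gap between them was smaller than the spread between the 4T1-U1-ASO libraries. Adss encodes an enzyme of AMP synthesis, and both of its listed sites held a peak, with 36 and 36 reads and with 7 and 10 reads. The stronger had signals of 28.7 and 28.4 against 9.70 and 9.31 in the authors' deposited table, with close replicates in both groups.

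In Rock2 the authors' deposited table lists 2 sites as lower, with log2 fold changes of -3.98 and -3.22, and 1 further downstream as higher at 1.83. The peak of 120 and 142 reads lay between the second and the third of these, 5956 bp before the last. The last exon of Rock2 had signals of 673 and 699 in 4T1-U1-ASO and 22.2 and 72.4 in 4T1 in the authors' deposited table. Its last listed site had 106 and 135 against 0 and 2.07 in the authors' deposited table. Signal was therefore higher in 4T1-U1-ASO at the last listed site and at the last exon, and a 4T1 peak lay 188 bp from the peak. Ndufs1, a gene of respiratory complex I, Tars, a threonyl-tRNA synthetase gene, and Cenpf, a kinetochore gene, held the other peaks between sites, with 16 and 9, 13 and 12, and 5 and 9 reads. The peak in Cenpf lay 198 bp from a listed site and was thus the closest of the 7 to one.

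**Figure D5:**
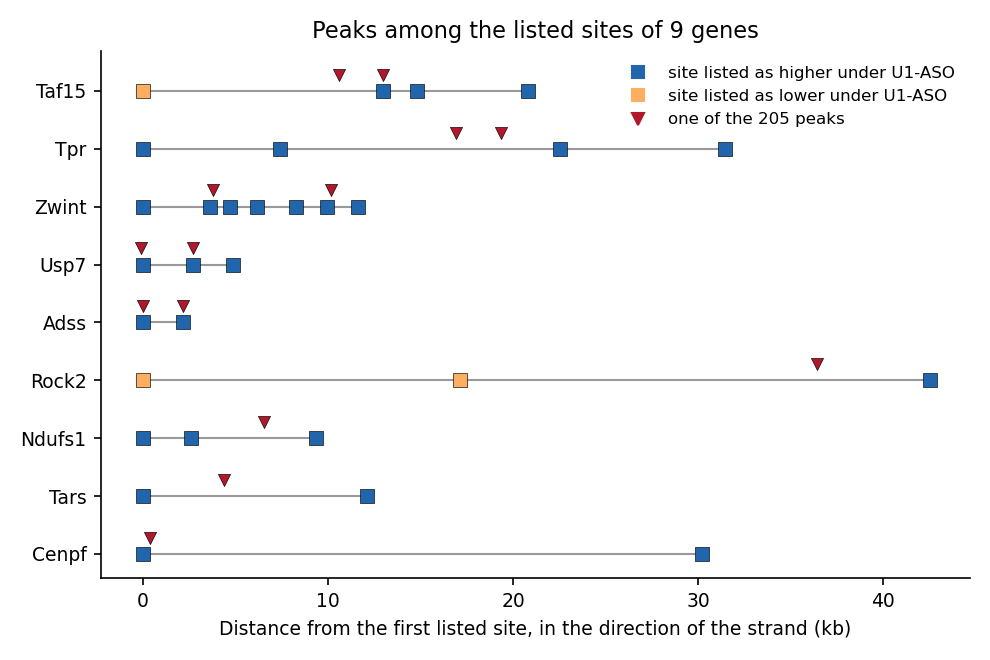
Listed sites (squares, coloured by the direction in the authors' table) and peaks of the 205 (triangles) in 9 genes, by distance in kb from the first listed site in the direction of the strand. In Taf15 and Rock2 a peak lies between a site listed as lower and one listed as higher; in Tpr both peaks lie between the second and the third of 4 sites.

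Genes of 8 short lists, for U1, RNA processing, cell spreading and other functions, were looked up among the listed genes. A gene counts here as holding a peak only where the peak lay inside or between its listed sites, which 35 of the 499 listed genes on these chromosomes did. The lists were made by hand and are not complete: Neurl3, Uchl3, Zwint, Cenpf, Alcam and Pkp2, a desmosome gene, each held a peak and are in none of them. Of the 5 genes of the U1 particle and U1-associated list that the tables name, Taf15 held a peak, and of the 6 of the hnRNP list 1 did, Hnrnpc, an RNA-binding protein gene whose peak had 7 and 5 reads. A further peak, with 36 and 40 reads, lay 4934 bp upstream of the listed site of Hnrnpu, and whether it is inside that gene was not determined. Of the 6 genes of the adhesion and cytoskeleton list 1 held a peak, Rock2, of the 2 of the ubiquitin list Usp7, and of the 5 of the nuclear transport list Tpr. None of the 4 genes of the SR protein list, the 4 of the cleavage and polyadenylation list or the 2 of the cell cycle and DNA repair list, which are Msh6 and Top2a, did. With 1 gene or none in each list, these counts allow no comparison between lists or with all listed genes.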

How the data were processed

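Polyadenylated 3' ends were measured in 10 libraries. Per the submitters' processing notes, the reads were processed on the mouse build mm9 with DESeq2 1.4.5, bedtools 2.17.0, SAMtools 1.1 and Bowtie2 2.2.5, with no role given. The deposited peak lists hold a whole-number read count per peak and library, filtered by the authors in a way not given in the sources used here. Per the file headers, the authors' tables hold a log2 fold change, an adjusted p-value (the authors' own) and a normalized read signal of site and last exon per library. Positions are 1-based.

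The rule was applied with Python 3.11.15, pandas 2.3.3, numpy 2.4.6 and scipy 1.17.1 and tested on simulated lists. A count with bedtools 2.31.1 gave the same number of peaks, 205. Figures were drawn with matplotlib 3.10.9. Shares carry exact (Clopper-Pearson) 95% intervals, for counting error only. Read numbers of both libraries were compared after scaling to all reads of each list (RPM). Clusters link peaks up to 5 kb apart. Usage was computed from the deposited signals. No test was run, because the rule used the reads. Named peaks are the 10 with the most reads, the 5 largest clusters, the 10 with the most reads inside listed sites, the 10 genes with the most peaks, and those in the gene lists. Members and lists were chosen with earlier results of these data known. Arf1, Nf1, Pip4k2c, Tcp1 and the other genes at 0 in 4T1, and the peak farthest from other groups, were named after their values were seen. No mm9 annotation was used, and peaks beyond the listed genes have no gene name. The deposited tables of the line comparisons were not used here. Alternatives changed the minimum reads, the overlap, the lists that exclude, the clustering distance and the libraries.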

Additional observations from a re-analysis of the deposited data

How the results depend on the processing

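The number of peaks was 374 at a minimum of 3 reads, with a median of 6 reads and 173 bp and 11.2% in listed sites. At 10 reads it was 99, with a median of 29 reads and 249 bp and 12.1% in clusters, and at 20 reads 58, with 49 reads, 236 bp and 10.3% in clusters. At 2 RPM (reads scaled to library size) it was 155, with medians of 16 reads and 240 bp, 12.9% in clusters and 17.4% in listed sites. Where only other groups' peaks of 5 or more reads excluded, it was 768, with 9 reads, 216 bp and 27.1% in clusters. Where only 4T1 excluded, it was 893, with 14 reads, 233 bp and 23.6% in clusters. Without the 67NR replicate 2 list and with every chromosome of the other 9 lists except 18, it was 563, with medians of 12 reads and 219 bp. Taken from the replicate 2 list, it was 204, with medians of 12 reads and 231 bp, 14.2% in clusters and 13.7% in listed sites. With no other group's peak within 200 bp, 11.9% were in clusters, and at 1000 and 50000 bp 6.83% and 30.2% were. Sites listed at an adjusted p up to 0.01 held 4.88%. Recovery was 36.7% for any replicate 2 peak and 30.1% at 10 reads. Leaving out 1 library at a time gave 223 to 788 peaks, medians of 8 to 12 reads and 213.5 to 229 bp, 14.0% to 18.1% in clusters and 10.7% to 16.7% in listed sites. The 788 and 760 came from leaving out 4T1-U1-ASO replicate 2 and replicate 1, where nothing is asked of a second library. Without 67NR replicate 2 the number was 291. Added after seeing the data, the first block alone gave 28 peaks, the second 177, and 179 remained without those whose listed site had a 4T1 signal. The share between sites of 1 gene moved by less than its interval in all 20 alternatives run for it. The reads behind a typical peak, 11 and 12, limit how firmly any 1 of the 205 is placed. No paired analysis was possible because no result comes from a test and the replicate numbers name libraries only.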
